A study of Rattus norvegicus with 6 samples.

Results

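The mitochondrial iron and iron-sulfur cluster genes described here are Iscu, Nfs1, Glrx5, Cisd1, Cisd2, Slc25a37 and Slc25a28, taken by gene symbol from a table of 34510 entries. The 7 symbols matched 8 entries, because Nfs1 is listed at 2 positions, and 7 of these entries passed the filter on low values. The cells were neonatal rat ventricular cardiomyocytes, a primary culture of the beating cells of the newborn ventricle. Poly(A) RNA was sequenced in 3 libraries titled Bgal and 3 titled Trim28, and the design text of the series names infection with an adenovirus carrying TRIM28 (Ad-Trim28). What Bgal stands for is not spelled out in the labels, nor is it said which virus those cells received, and no dose, time after infection, age in days or batch is given. No other genotype or treatment is named for either group. Whether the 3 libraries of a group are separate cultures or animals is not labelled. The spread behind the p-values may therefore be technical.

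Iron-sulfur clusters are small cofactors of iron and sulfide that carry electrons in the respiratory chain and serve enzymes such as lipoyl synthase. In mitochondria, the cysteine desulfurase NFS1 releases sulfur from cysteine, and the cluster is put together on the scaffold protein ISCU with the help of a ferredoxin. A chaperone pair moves it to the glutaredoxin GLRX5, which passes it on to late-acting proteins. Iron reaches the matrix through the mitoferrins SLC25A37 and SLC25A28. CISD1 (mitoNEET) of the outer mitochondrial membrane and CISD2 of the endoplasmic reticulum and its mitochondrial contacts hold clusters that they can release.

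Trim28 was 27.5-fold higher in the Trim28 libraries, at 2923, 2890 and 980 FPKM against 77.6 to 87.8 FPKM in Bgal, so the third Trim28 library had the smallest excess. Reads assigned to genes ranged from 26146166 to 34593292 per library. Of 9 heart muscle markers found, all were tested, and their summed level was 17915 to 20515 FPKM in Bgal and 20981 to 21362 FPKM in Trim28. By the test 2 of them rose, 4 fell and 3 did not pass, with a median log2 difference of -0.08. The actin gene Actc1, one of those that rose, went from a mean of 5714 to 9018 FPKM. The other that rose was Actn2, from 761 to 1019 FPKM. The 4 that fell were Tnni3 (1299 to 788 FPKM), Tnnt2 (4471 to 3759 FPKM), Pln (1238 to 865 FPKM) and Mybpc3 (595 to 455 FPKM). Actc1 had the highest mean of the 9 in both groups, so it weighs most in the summed level. Over all tested genes the same test called 41.2%, with 20.1% higher and 21.1% lower. Fibroblast, mural cell and leukocyte markers moved with the group. Summed fibroblast markers stood at 560 to 583 FPKM in Bgal and 1031 to 1100 FPKM in Trim28, with 9 of 10 higher by the test. Summed mural cell markers stood at 761 to 1017 and 1620 to 1718 FPKM, with 7 of 8 higher. Summed leukocyte markers stood at 27.1 to 27.5 and 64.2 to 65.7 FPKM, with 6 of 6 tested higher. Endothelial markers that passed the filter numbered 3, with 2 higher and 1 lower. All endothelial markers found summed to 38.6 to 46.9 FPKM in Bgal and 89.3 to 92.3 FPKM in Trim28. Eng made up most of this sum, with means of 33.0 and 82.3 FPKM. Of the other tested ones, Tek rose from 1.23 to 2.14 FPKM and Kdr fell from 8.07 to 6.06 FPKM. The part of all these cell type markers in the results on iron-sulfur genes was not tested. In these bulk libraries, fewer cells of a type and less RNA per cell cannot be told apart.

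Of the 7 genes, Iscu rose, Glrx5 and Cisd1 fell, and Cisd2, Slc25a37, Slc25a28 and Nfs1 did not pass the test. Over all 14808 tested genes the same test called 41.2%, with 20.1% higher and 21.1% lower, so 3 calls among 7 entries is a share near the background. The calls of Iscu, Glrx5 and Cisd1 held without the third Trim28 library. Library ranges of the 2 groups did not overlap for the same 3 members, 1 higher and 2 lower, against 53.8% of all tested genes (26.0% with Trim28 higher and 27.7% with Trim28 lower). The test was limma on log2(FPKM + 1) with Benjamini-Hochberg adjustment over all tested genes at a threshold of 0.05. FPKM scales the reads of a gene by its length and by the depth of the library, so levels of different genes can be set beside each other.

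Promoter sequences are shown for the gene that rose, for one that fell and for its paralog that did not pass, as the stretch of 250 bases before the annotated start. They are RefSeq sequences of build GRCr8, in which 5 of the 7 genes matched. Capitals mark the core motif of nuclear respiratory factor 1 (GCGCA, any 1 base, then GCGC, searched on both strands) in Cisd1 and Iscu, the cAMP response element TGACGTCA in Iscu, and the NF-Y box CCAAT (both strands) in Cisd2.
Iscu, chr12:48518697-48518946, minus strand: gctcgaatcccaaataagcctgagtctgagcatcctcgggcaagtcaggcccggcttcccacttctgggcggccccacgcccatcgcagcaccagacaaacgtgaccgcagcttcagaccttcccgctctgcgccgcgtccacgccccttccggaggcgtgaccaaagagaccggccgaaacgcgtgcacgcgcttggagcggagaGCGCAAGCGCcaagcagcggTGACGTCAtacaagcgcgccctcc
Cisd1, chr20:17254212-17254461, plus strand: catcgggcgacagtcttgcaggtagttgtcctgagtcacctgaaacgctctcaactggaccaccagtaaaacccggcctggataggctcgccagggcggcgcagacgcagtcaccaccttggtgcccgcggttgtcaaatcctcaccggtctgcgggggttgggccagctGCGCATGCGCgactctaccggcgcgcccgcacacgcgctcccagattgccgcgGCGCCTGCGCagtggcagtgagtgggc
Cisd2, chr2:226527326-226527575, minus strand: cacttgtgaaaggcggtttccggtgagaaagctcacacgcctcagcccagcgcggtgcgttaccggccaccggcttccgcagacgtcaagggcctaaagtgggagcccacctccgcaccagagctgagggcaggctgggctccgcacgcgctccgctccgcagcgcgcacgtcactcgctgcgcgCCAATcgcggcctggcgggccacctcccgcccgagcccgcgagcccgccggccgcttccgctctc
The Cisd1 stretch held 2 matches to the nuclear respiratory factor 1 core, beginning 80 and 27 bases before the start, and the Iscu stretch held 1, beginning 44 bases before it. No other of the 5 promoters held this motif, which was present in 3.75% of 33469 promoters of the same length. The cAMP response element lay 24 bases before the Iscu start and in 1.59% of all promoters. CCAAT was found 4 times in Glrx5, 3 times in Slc25a28 and once in Cisd2, against 34.0% of all promoters with at least 1 match. The GC box GGGCGG, searched on both strands, was found 3 times in Slc25a28, once each in Iscu, Cisd1 and Cisd2, and in 30.5% of all promoters. In Cisd2 it reads CCGCCC in the printed stretch. For Glrx5 and Slc25a28 the annotated start lies 292 and 23 bases inside the longest RefSeq gene model, so their stretches are partly or wholly transcribed in that model and are not printed. GC content was 72.0% in Cisd2, 66.4% in Cisd1 and 66.0% in Iscu, and 58.8% in Slc25a28 and 55.2% in Glrx5, against a median of 51.2% and an upper quartile of 60.0% over all promoters. No match overlapped another, and a match is a description of letters. The motifs were chosen after these sequences had been seen, so the shares over all promoters do not measure how unusual a match is. Those promoters were also not matched for GC content.

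Iscu, the scaffold gene (ENSRNOG00000000701, chromosome 12, 48621454 to 48627297, minus strand), stood at 105.8, 109 and 116 FPKM in Bgal libraries 1 to 3 and at 141, 135 and 132 FPKM in Trim28 libraries 1 to 3. All 3 Trim28 values lay above all 3 Bgal values. The mean went from 110.1 ± 4.99 to 136 ± 4.74 FPKM (SD, n = 3 each), a rise of 1.24-fold. On the log2 scale the difference was 0.31 (SE 0.05, 95% confidence interval 0.19 to 0.42), and the limma adjusted p was 0.00251. Between 2924 and 3670 reads per library lay behind these values. Sart3, a splicing factor gene on the opposite strand that starts 980 bases away, was picked with its values in view. Its level fell from 20.5 ± 1.14 to 17.3 ± 0.317 FPKM (limma adjusted p = 0.0129), opposite to Iscu. Coordinates in this and the following paragraphs come from the deposited table, and the sources used here do not name their build.

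Nfs1, the gene of the sulfur donor, is listed at 2 positions on the minus strand of chromosome 3, and its values could not be read as one gene. The entry with more reads (ENSRNOG00000019736, 152200936 to 152222647) stood at 7.99, 16.0 and 13.4 FPKM in the Bgal libraries and at 13.7, 14.0 and 0.253 FPKM in Trim28 libraries 1 to 3. The third Trim28 library was far below the other 5, with 10 reads against 392 to 641. The second entry (ENSRNOG00000045686, 151665814 to 151688149) lay between 0.0694 and 0.803 FPKM, with 4 to 45 reads, and did not pass the filter. In the third Trim28 library both entries together held 14 reads. The higher entry had a log2 difference of -1.001 with 95% confidence bounds at -3.11 and 1.11, and did not pass (limma adjusted p = 0.41). Without the third Trim28 library the log2 difference was 0.19 (limma adjusted p = 0.589). Neither direction nor size is therefore given for Nfs1.

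Other genes beside the 2 Nfs1 entries are also listed under paired names, and their reads too varied widely between libraries of a group. Rbm39, a splicing regulator gene next to the lower Nfs1 entry, had 1170, 1434 and 635 reads in Bgal and 1016, 451 and 103 reads in Trim28. LOC100910882, described as Rbm39-like and next to the higher Nfs1 entry, had 159, 25 and 42 reads in the first group and 211, 4 and 425 reads in the second. The third Trim28 library was thus lowest in Rbm39 and highest in its copy. Romo1, beside the higher Nfs1 entry, was listed at 0 in every library. These neighbours were chosen after their values were seen. How the pipeline shared or dropped reads that match both copies is named in no source used here, and its part in the Nfs1 values was not tested.

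**Figure D1:**
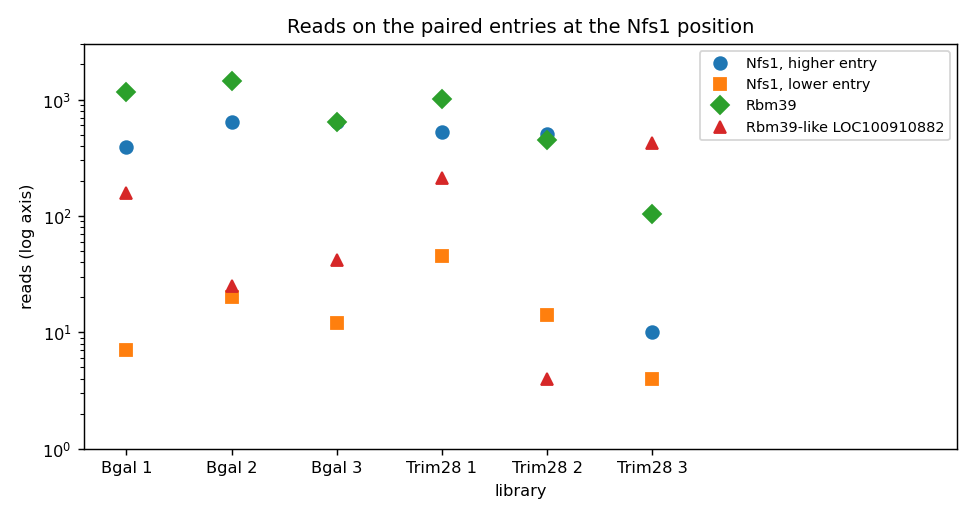
Reads per library on a log axis for the 2 Nfs1 entries and for Rbm39 with its copy. The third Trim28 library has 10 reads on the higher Nfs1 entry and 425 on the Rbm39 copy, and the higher Nfs1 entry of Bgal library 3 (637 reads) lies under the Rbm39 point (635 reads).

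Glrx5, the transfer glutaredoxin (ENSRNOG00000004206, chromosome 6, 128750795 to 128760880, plus strand), stood at 86.3, 87.9 and 84.8 FPKM in Bgal and at 63.2, 66.8 and 62.0 FPKM in Trim28. The groups did not overlap, and the spread within each was small beside the gap. The mean fell from 86.3 ± 1.55 to 64.0 ± 2.51 FPKM (SD, n = 3 each), 1.35-fold lower, with 3767 to 6600 reads per library. The log2 difference was -0.43 (SE 0.04) with 95% confidence bounds at -0.53 and -0.32, at a limma adjusted p of 0.000416.

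Cisd1, which encodes mitoNEET (ENSRNOG00000000610, chromosome 20, 18493538 to 18506912, plus strand), stood at 164, 176 and 176 FPKM in Bgal and at 135, 133 and 138 FPKM in Trim28. Every Trim28 value lay below every Bgal value, and its mean fell from 172 ± 6.98 to 135 ± 2.58 FPKM (SD, n = 3 each). The log2 difference was -0.34 (SE 0.04) with 95% confidence bounds at -0.45 and -0.24, at a limma adjusted p of 0.000969. Cisd2 (ENSRNOG00000048258, chromosome 2, 240586754 to 240611560, minus strand), the paralog in the endoplasmic reticulum, stood at 50.0, 42.9 and 48.0 FPKM in Bgal and at 47.9, 48.3 and 49.2 FPKM in Trim28. The Trim28 values lay inside the Bgal range, in which library 2 was lowest. The log2 difference of Cisd2 was 0.05, with 95% confidence bounds at -0.10 and 0.19, and its limma adjusted p of 0.575 did not pass. Cisd3, the third gene of the family, which encodes a protein of the mitochondrial matrix, stood at 24.4 ± 2.70 FPKM in Bgal and 27.3 ± 0.472 FPKM in Trim28. It did not pass (limma adjusted p = 0.133) except without Bgal replicate 1 (adjusted p = 0.0254), in a range up to 0.325 over its alternatives.

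The ratio of Cisd1 to Cisd2 within each library was 3.68 in Bgal and 2.80 in Trim28, as geometric means. On the log2 scale it was 1.72, 2.04 and 1.88 in the Bgal libraries and 1.49, 1.47 and 1.49 in Trim28 libraries 1 to 3. The difference of -0.39 separated the groups without overlap, and the two-sided exact permutation p was 0.1, the smallest that 3 libraries against 3 allow (0.2 after adjustment over the 2 paralog pairs).

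Slc25a37, mitoferrin 1, the carrier known for its role in developing red cells (ENSRNOG00000015495, chromosome 15, 51128268 to 51168384, minus strand), stood at 6.98, 7.83 and 6.15 FPKM in Bgal and at 7.28, 7.60 and 6.79 FPKM in Trim28. The Trim28 values lay inside the Bgal range. Its log2 difference of 0.05 had 95% confidence bounds at -0.17 and 0.27 and a limma adjusted p of 0.721, on 307 to 391 reads per library. Slc25a28, mitoferrin 2, the broadly expressed relative (ENSRNOG00000016751, chromosome 1, 263420061 to 263431290, minus strand), stood at 14.5, 16.8 and 13.8 FPKM in Bgal and at 15.2, 13.8 and 12.1 FPKM in Trim28. The groups overlapped, and the log2 difference was -0.13 (95% confidence bounds -0.37 and 0.11), which did not pass at a limma adjusted p of 0.343.

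Slc25a37 was the lower of the 2 mitoferrins in every library. Its ratio to Slc25a28 was 0.463 in Bgal and 0.530 in Trim28 as geometric means, a log2 difference of 0.19 with overlapping groups (two-sided exact permutation p = 0.2, also 0.2 adjusted over the 2 pairs). Red cell markers were near 0 in both groups. Of 10 found, 1 passed the filter and it did not pass the test, and their summed level was 1.38 to 3.37 FPKM in Bgal and 1.87 to 3.60 FPKM in Trim28.

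**Figure D2:**
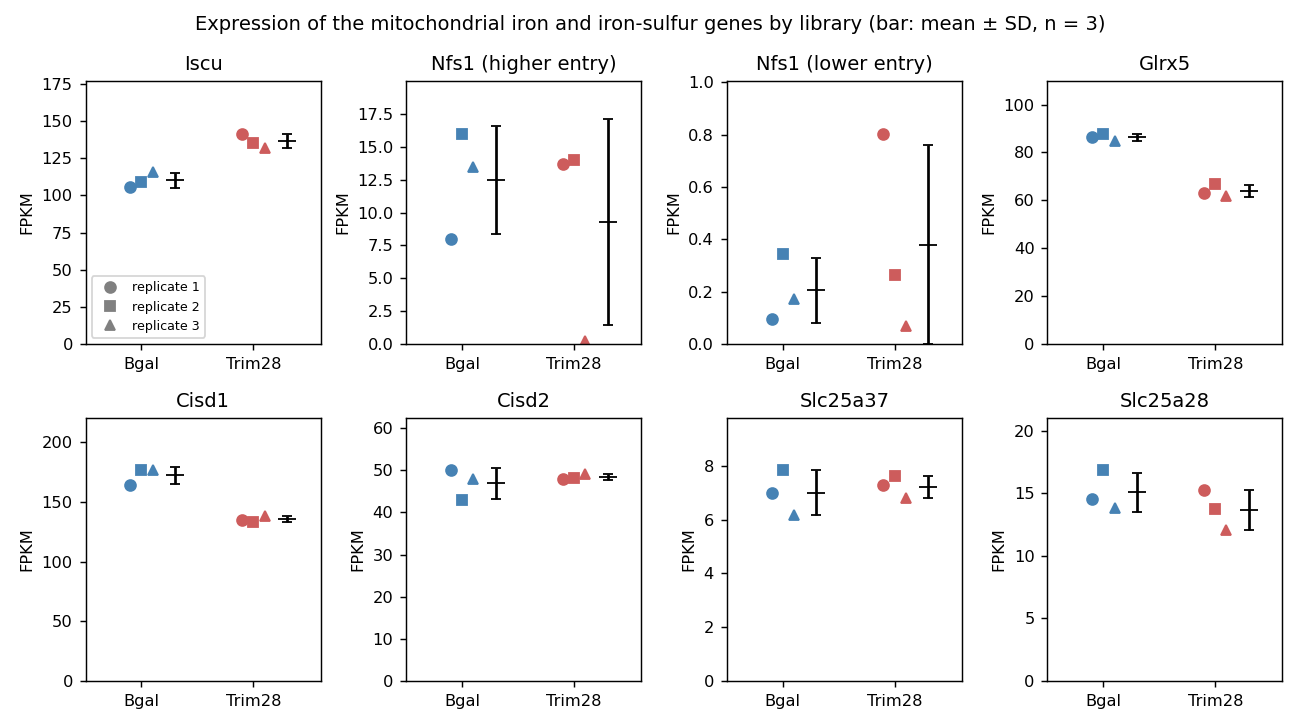
FPKM of each entry in the 3 Bgal and 3 Trim28 libraries, with points for libraries and bars for mean ± SD, on axes that start at 0. Iscu is higher and Glrx5 and Cisd1 are lower in all 3 Trim28 libraries, while the other entries overlap between the groups.

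In the Bgal libraries the order of levels was Cisd1, Iscu, Glrx5, Cisd2, Slc25a28, Nfs1 and Slc25a37, from 172 to 6.99 FPKM. Neighbours in this order did not overlap, except Slc25a28 and Nfs1. In the Trim28 libraries Iscu, at 132 to 141 FPKM, and Cisd1, at 133 to 138 FPKM, overlapped at the top of the order. Glrx5 and Cisd2 followed, each without overlap with its neighbours, and Nfs1 overlapped both mitoferrins, which did not overlap each other. Within the groups the coefficient of variation was 1.79% to 4.53% for Iscu, Glrx5 and Cisd1, and 5.63% to 12.0% for the mitoferrins. For Cisd2 it was 7.77% in Bgal and 1.36% in Trim28, on 3588 to 5120 reads per library. The mitoferrins had fewer reads, and the part of read number in the spread was not tested.

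The proteins that work with ISCU and GLRX5 were taken from a list of 18 further genes of mitochondrial cluster assembly, all of them tested. Of these, 8 fell, 0 rose and 10 did not pass, and the median log2 difference was -0.26, against -0.02 over all tested genes. The share called was 44.4%, near the 41.2% of all tested genes, of which 20.1% rose and 21.1% fell. The chaperone pair fell. Hspa9, the mitochondrial HSP70 that takes the cluster from the scaffold, went from 222 ± 5.32 to 135 ± 3.58 FPKM (limma adjusted p = 5.93e-05), and its co-chaperone Hscb from 12.2 ± 0.642 to 7.80 ± 1.06 FPKM (limma adjusted p = 0.00303).

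The electron supply and the stabiliser of NFS1 did not pass. Fdx2, the ferredoxin of assembly, stood at 24.6 ± 3.44 FPKM in Bgal and 28.5 ± 2.43 FPKM in Trim28 (limma adjusted p = 0.143). It passed without Bgal replicate 2 (adjusted p = 0.0286) and with the replicate block (adjusted p = 0.0297), within a range up to 0.357 over its alternatives. Fdxr, its reductase, stood at 2.88 ± 0.124 and 2.49 ± 0.402 FPKM, and Lyrm4, which holds NFS1 in its active complex, at 7.33 ± 1.12 and 6.07 ± 1.22 FPKM. Iscu therefore differed in sign from the 8 assembly genes that passed.

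**Figure D3:**
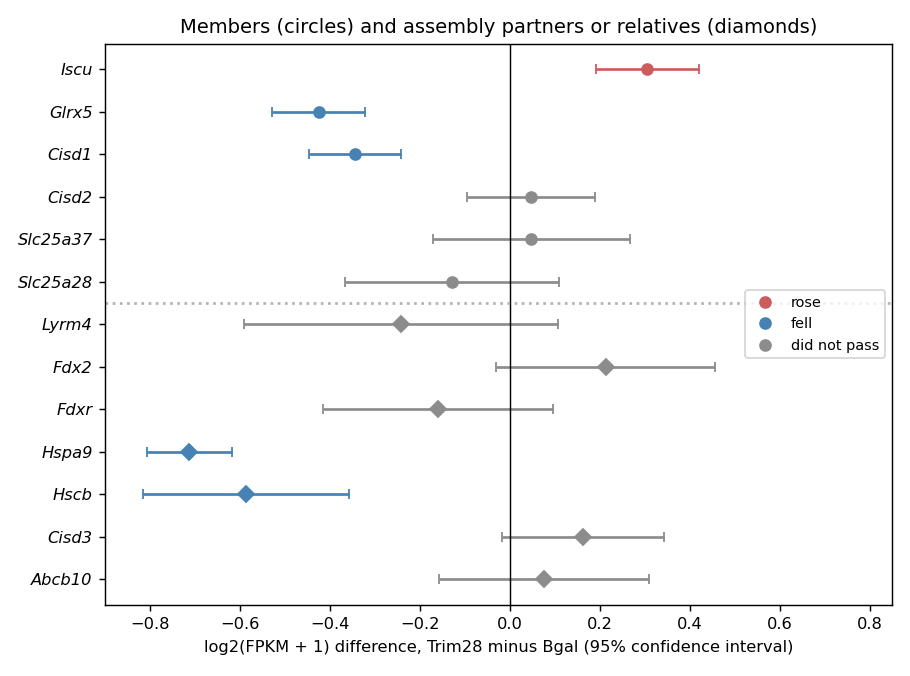
Log2(FPKM + 1) difference with its 95% confidence interval for 6 of the members (circles) and for 7 partners or relatives (diamonds), coloured by the limma call. Iscu is the one gene shown that rose, and Nfs1 is left out because 1 library decides its value.

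Of 11 genes of cytosolic cluster assembly, all tested, 3 fell, 0 rose and 8 did not pass, with a median log2 difference of -0.03. The share called was 27.3%, against 41.2% of all tested genes. Ciao2a, a targeting factor of the cytosolic pathway, fell from 90.8 ± 4.81 to 55.7 ± 1.18 FPKM, and Glrx3 and Ciapin1 fell 1.17-fold and 1.20-fold. Bola2, the partner of GLRX3, stood at 28.9 ± 2.39 FPKM in Bgal and 34.0 ± 3.17 FPKM in Trim28, with a limma adjusted p of 0.0693. It passed, as higher, without Bgal replicate 2 (adjusted p = 0.0379), without Trim28 replicate 3 (adjusted p = 0.0237) and with the replicate block (adjusted p = 0.039).

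Of 20 other genes of mitochondrial iron and heme synthesis 18 were tested. Among these 2 rose, 9 fell and 7 did not pass, with a median log2 difference of -0.14. The share called was 61.1%, against 41.2% of all tested genes. Fech, the iron-sulfur enzyme that inserts iron to form heme, fell 1.65-fold, from 22.5 ± 0.603 to 13.7 ± 1.10 FPKM (limma adjusted p = 0.000342). Clpx, an unfoldase that acts on the first enzyme of heme synthesis, fell from 59.3 ± 4.77 to 44.2 ± 2.58 FPKM, and Abcb8, a transporter of the inner membrane, from 20.1 ± 1.32 to 15.8 ± 0.945 FPKM. Pgrmc1, a heme-binding membrane protein, rose from 43.8 ± 1.92 to 52.8 ± 3.15 FPKM. The other gene that rose was Abcb6, a porphyrin transporter, from 24.2 ± 0.381 to 27.8 ± 2.03 FPKM, named after its values were seen. Abcb10, an inner membrane transporter that binds mitoferrin 1, had means of 4.37 ± 0.245 FPKM in Bgal and 4.68 ± 0.588 FPKM in Trim28, with a limma adjusted p of 0.584. Ftmt, mitochondrial ferritin, was listed at 0 in every library. Without Trim28 replicate 1 the genes of this list that fell numbered 4, and without Bgal replicate 1 they numbered 5. Those that rose numbered 1 without Bgal replicate 2 or 3 or Trim28 replicate 1 or 2.

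Genes of proteins that carry a cluster in mitochondria fell in 9 of 12 cases, with 0 higher and a median log2 difference of -0.23. The same test called 41.2% of all tested genes, with 21.1% lower. Mitochondrial genes without a cluster, described below, fell in 24 of 31 cases, so the fall was not limited to cluster proteins. Lias, lipoyl synthase, fell from 21.8 ± 0.457 to 14.2 ± 0.773 FPKM (limma adjusted p = 0.000324). Uqcrfs1 and Ndufv2, cluster subunits of complexes III and I, fell 1.38-fold and 1.34-fold. Of 15 tested genes of cluster proteins in the cytosol and nucleus, 6 rose, 1 fell and 8 did not pass, with a median of 0.08. That is 46.7% called, near the share of all tested genes. Xdh, xanthine dehydrogenase, rose 2.48-fold, from 3.17 ± 0.452 to 7.86 ± 0.796 FPKM (limma adjusted p = 0.000382). Pold1 and Prim2, of DNA polymerase delta and primase, rose 1.46-fold and 1.38-fold, and the repair gene Mutyh rose 1.39-fold. The gene that fell, named after its value was seen, was Aco1, which encodes the cluster protein that becomes the iron regulatory protein IRP1 (24.2 ± 0.833 to 21.6 ± 0.835 FPKM, limma adjusted p = 0.0497). No gene of this list fell without any 1 library other than Bgal replicate 2. The number that rose was 3 without Bgal replicate 1, 2 or 3 or Trim28 replicate 1, and 4 without Trim28 replicate 2 or 3. Prim2 lost its call in 4 of these fits and Mutyh in 3.

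**Figure D4:**
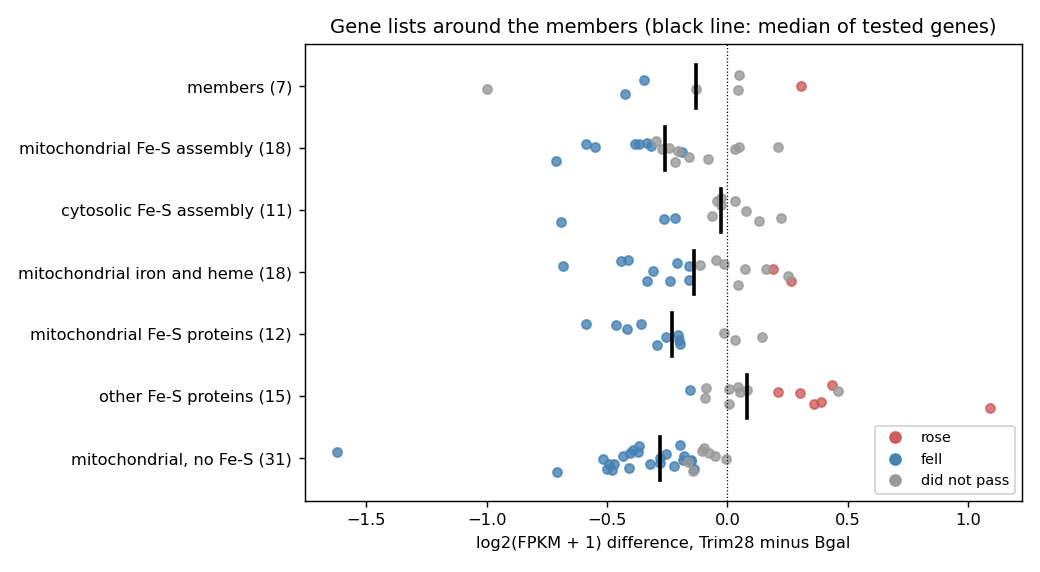
Log2(FPKM + 1) difference of every tested gene in each list, coloured by the limma call, with the median as a black line and the number tested in parentheses. Medians run from -0.28 for mitochondrial genes without a cluster to 0.08 for cluster proteins outside mitochondria, and the member farthest to the left is Nfs1.

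Nuclear-encoded mitochondrial genes whose proteins carry no cluster fell too, which gave a scale for the members. Of 31 tested, 24 fell and 0 rose (77.4% called, against 41.2% of all tested genes), with a median log2 difference of -0.28. Cs, citrate synthase, fell from 404 ± 11.5 to 289 ± 15.0 FPKM, and Cox8a and Cox6b1, subunits of cytochrome oxidase, fell 1.43-fold and 1.41-fold. Uqcrb, with the largest fall of the list at 3.11-fold, is listed at 2 positions like Cox6b1, so the level of each is uncertain. The Uqcrb entry used runs from 94718402 to 94718876 on chromosome 1 with a length of 475 bases, so it holds no intron. Whether that entry is the gene or a copy of it was not tested.

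Each member was then set against the mean log2 FPKM of these 31 genes in the same library. Uqcrb and Cox6b1 were kept in this reference, and a reference without them was not tried. Iscu stood at -1.70, -1.70 and -1.65 in Bgal and at -0.97, -1.06 and -1.09 in Trim28, 1.56-fold higher relative to the reference. Cisd2 and Slc25a37 were also higher relative to it in every Trim28 library, by 1.30-fold and 1.31-fold. Cisd1 lay at -1.03 ± 0.03 and -1.05 ± 0.03 (SD, n = 3 each), a ratio of 0.989 with overlapping groups. Glrx5, at -2.03 ± 0.06 and -2.13 ± 0.05, and Slc25a28, at -4.56 ± 0.16 and -4.36 ± 0.18, also overlapped between the groups. The two-sided exact permutation p was 0.1 for Iscu, Cisd2 and Slc25a37, the smallest this design allows, and 0.233 after adjustment over the 7 members. These relative values share the reference genes, so they are not independent of each other. The reference itself separated the groups, with mean log2 FPKM of 8.42 to 8.50 in Bgal and 8.12 to 8.14 in Trim28. A steady member therefore comes out higher relative to it. Cisd2 and Slc25a37 did not pass on their own, so their relative values mostly restate the fall of the reference. The fibroblast, mural and leukocyte markers given above were higher in the same libraries in which the reference was lower. Heart muscle markers were mixed, with 2 higher, 4 lower and 3 that did not pass. The part of any of these markers in the fall of the reference was not tested.

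**Figure D5:**
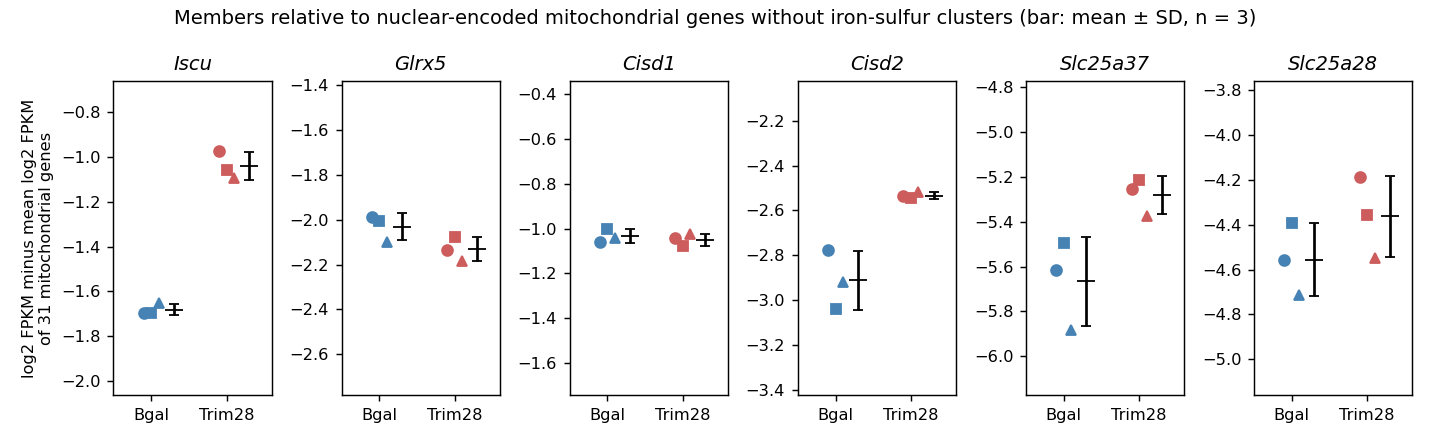
Log2 FPKM of 6 members minus the mean log2 FPKM of 31 nuclear-encoded mitochondrial genes, by library, with bars for mean ± SD and equal axis spans. Iscu, Cisd2 and Slc25a37 separate the groups, with Trim28 higher, while Cisd1, Glrx5 and Slc25a28 overlap. The reference itself is lower in the Trim28 libraries.

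The genes whose log2 level followed each member most closely over the 6 libraries were taken by Pearson's r, as a description without a test. For Iscu, Glrx5 and Cisd1 the group difference enters r. Iscu was followed by Mppe1, Tmx4 and Ube2g1 at 0.997, 0.996 and 0.995, and 12.2% of all tested genes had an r over 0.9 with it. Glrx5 was followed by Sars, Osbpl2 and Scnm1 at 0.999, 0.998 and 0.998, with 14.0% of genes over 0.9. Cisd1 was followed by Ppm1f, Uqcrfs1 and Got1 at 0.998, 0.997 and 0.996, with 13.3% of genes over 0.9. For the members that did not pass, at most 0.601% of genes reached that value. Nearest to Slc25a37 was Sirt6 at 0.979, to Slc25a28 Pard3 at 0.971 and to the higher Nfs1 entry Emc4 at 0.977. The value for Nfs1 includes the third Trim28 library, with 10 reads on that entry.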

How the data were processed

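Values were deposited as FPKM, per the file headers, with 1 column per library. The submitters' processing notes name HISAT2 2.0.5 and DESeq2. No source used here gives the counting tool, strand setting, build or annotation. Multiplied by gene length, 100% of values above 0 came out as whole reads (within 0.01), which gave the reads quoted. One read on a gene of 1 kilobase was worth 0.0281 to 0.0381 FPKM.

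The 14808 genes that reached 0.5 FPKM in 3 or more libraries were compared on log2(FPKM + 1), which understates changes of low genes, with limma 3.58.1 in R 4.3.3 (intensity trend, two-sided). Folds are ratios of mean FPKM. Where a symbol had several entries, the one with the highest mean was used. The limma step was also run on simulated reads with few changed genes and a common spread. These data differ from that setting, so the run does not vouch for the calls given here.

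The members and gene lists were chosen with earlier results of these data known. Named genes are the members, partners or relatives taken by name, the 4 genes with the smallest p of each other list, and the 3 genes of at least 10 FPKM nearest to each member by r; the promoter motifs were chosen after the sequences had been seen. Of the fixed markers and list genes, Ttn, Itgam, Pecam1, Cdkal1, Dna2 and Atp5f1c had no match by symbol and are not analysed here, and a few genes that the rule names are not reported here. Alternatives were limma-voom on the recovered reads, median-of-ratios scaling, a pseudocount of 0.1, no filter, a filter of 2 FPKM, no intensity trend, a replicate block and leaving out each library.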

Additional observations from a re-analysis of the deposited data

How the results depend on the processing

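Iscu, Glrx5 and Cisd1 kept their direction and their call under each of the 13 alternatives run for them, with log2 differences of 0.28 to 0.34, -0.46 to -0.40 and -0.38 to -0.33. Members that did not pass stayed so, but 3 changed sign without 1 library: Nfs1 without Trim28 replicate 3 (range over left-out libraries -1.60 to 0.19), Cisd2 without Bgal replicate 2 (-0.0158 to 0.0921) and Slc25a37 without Bgal replicate 3 (-0.0304 to 0.121). With its 2 entries summed, an alternative chosen after seeing the data, Nfs1 also did not pass. Leaving out 1 library gave ranges of 0 to 1 genes that rose in mitochondrial and in cytosolic assembly, 1 to 2 that rose and 4 to 9 that fell in iron and heme, and 3 to 4 that rose and 0 to 1 that fell among cluster proteins outside mitochondria. Whether replicate numbers pair the libraries is not labelled. Same-numbered deviations correlated at -0.016, 0.134 and 0.00915, and the other pairs at -0.0899 to 0.0839. With 3 libraries per group these values cannot settle it. With the replicate block 2744 genes rose and 2922 fell, no member changed its call, and 1 gene rose in each assembly list (Fdx2 and Bola2). The genes that rose in iron and heme numbered 1 with no filter and 1 without the intensity trend. The fall of Aco1 (adjusted p 0.0497) was lost, leaving 0 genes, with median-of-ratios scaling, a pseudocount of 0.1, no filter, no intensity trend or the replicate block. The causes were not tested. Slc25a37 had the fewest reads of the members other than Nfs1 (307 to 391 per library), while the standard error of its log2 difference was 0.09 against 0.10 for Slc25a28.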
